A study of Mus musculus with 24 samples.

Results

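The 10 genes described here belong to the circadian clock or are driven directly by it: Arntl (also called Bmal1), Npas2, Nr1d1, Nr1d2, Per1, Per2, Per3, Ciart, Dbp and Tef. They were taken by name from a table of 56941 genes in which all 10 were found, and their level was read in each of 22 mouse kidneys. The kidneys came from male C57BL/6J wild-type mice aged 8 to 11 weeks at surgery. Mice at 5d post-MI (8 kidneys used) and at 28d post-MI (6 kidneys used) had a myocardial infarction (MI) after the LAD, a main artery of the heart, was tied off permanently, and sham mice (8 kidneys) had the same surgery without ligation. All mice received isoflurane and buprenorphine, and the kidneys were snap-frozen after the hemodynamic measurement. Sham kidneys were taken at 5d only and served both times, so that age and time since surgery cannot be told apart from infarction at 28d. The hour at which each kidney was taken is not given in the sources used here. RNA was measured by MACE, which sequences the 3′ ends of polyadenylated mRNA. Levels are CPM, that is counts scaled to the TMM-normalized library size, and they were compared between kidneys and not between genes.

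The mammalian clock is a transcriptional loop that runs in nearly every cell. ARNTL pairs with CLOCK or NPAS2, binds E-box sequences and activates the Per and Cry genes, Nr1d1, Nr1d2, Ciart, Dbp and Tef. PER and CRY proteins then inhibit the activator, while NR1D1 and NR1D2 repress Arntl and Npas2 through sequences called ROREs, which the ROR proteins activate. DBP and TEF bind D-box sequences and carry the rhythm to other genes, among them Per genes. In the kidney the clock paces sodium transport and other tubular functions, and clock genes rise and fall there over the day.

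These sequences were looked for in the promoters of the members, since the members are grouped below by the part of the loop they belong to. RefSeq windows of 300 bases around the start site (GRCm38.p6, 250 before and 50 after) were found for 9 of the 10 genes, in 12 windows. Per2 had no entry. The motifs, searched on both strands, were the E-box CACGTG, the E′-box CACGTT, the D-box TTATGTAA or TTACGTAA, and the RORE as TAGGTCA. An E-box was found in 3 of the 9 genes, Per1, Tef and Ciart, and in 7.15% of all 32851 windows of that length. The E′-box was found in Nr1d1 alone (4.68% of all windows), the D-box in Per3 alone (1.06%) and the RORE in Arntl alone (2.61%). Members are counted here by gene and the background by window, and some members had more than 1 window. Positions are counted from the RefSeq start site along the gene and give the first base of the match. Stretches with a match, at least 1 for each of the 6 genes, are shown 5′ to 3′ on the gene's strand, with the motif in capitals. Bases of annotated exons are left out except in Arntl, whose RORE lies in its first exon at 31. For that reason the first start site of Tef, with an E-box at −127, is not shown.
Arntl (chr7:113207530-113207559, plus strand, RORE): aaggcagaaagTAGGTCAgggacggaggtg
Nr1d1 (chr11:98775378-98775627, minus strand, E′-box, read as its reverse complement, at −28): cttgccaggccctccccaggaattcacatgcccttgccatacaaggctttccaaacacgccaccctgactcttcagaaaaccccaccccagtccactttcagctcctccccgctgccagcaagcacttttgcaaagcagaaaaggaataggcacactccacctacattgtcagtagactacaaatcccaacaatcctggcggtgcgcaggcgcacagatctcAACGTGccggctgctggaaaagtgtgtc
Per1 (chr11:69098699-69098947, plus strand, within the annotated gene, E-box at −166): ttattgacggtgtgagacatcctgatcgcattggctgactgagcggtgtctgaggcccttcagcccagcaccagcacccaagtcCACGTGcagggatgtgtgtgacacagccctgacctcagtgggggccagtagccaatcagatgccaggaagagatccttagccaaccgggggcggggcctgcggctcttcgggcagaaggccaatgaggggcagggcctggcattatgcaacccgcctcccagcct
Per3 (chr4:151044666-151044915, minus strand, D-boxes at −205 and −158): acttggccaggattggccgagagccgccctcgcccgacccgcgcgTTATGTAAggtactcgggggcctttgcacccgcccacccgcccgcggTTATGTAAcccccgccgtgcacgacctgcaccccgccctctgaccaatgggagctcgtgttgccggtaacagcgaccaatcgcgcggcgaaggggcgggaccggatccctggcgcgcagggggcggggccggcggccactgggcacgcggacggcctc
Ciart (chr3:95882252-95882478, minus strand, E-boxes at −116, −58 and −44): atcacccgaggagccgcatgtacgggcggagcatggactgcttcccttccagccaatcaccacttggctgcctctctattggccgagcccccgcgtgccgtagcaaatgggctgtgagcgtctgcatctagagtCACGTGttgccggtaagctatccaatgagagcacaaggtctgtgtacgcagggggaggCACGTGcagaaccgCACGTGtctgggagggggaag
Tef (chr15:81811164-81811413, plus strand, upstream of its internal start site, E-box at −138): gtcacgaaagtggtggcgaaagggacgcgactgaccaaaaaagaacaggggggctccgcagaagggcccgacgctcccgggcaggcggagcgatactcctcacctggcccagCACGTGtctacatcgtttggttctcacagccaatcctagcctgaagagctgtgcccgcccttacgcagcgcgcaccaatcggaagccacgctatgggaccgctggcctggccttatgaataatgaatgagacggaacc
Ciart therefore held 3 E-boxes and Per3 a pair of D-boxes within 250 bases. A match is a description of the sequence and does not show that a factor binds there.

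The 22 libraries held from 2280618 to 3786275 counts, a median of 3206756 in sham, 3057828 at 5d and 2644574 at 28d. All 7 kidney marker genes were detected in every kidney, and their summed level was 7064 to 8299 CPM in sham, 7221 to 7840 CPM at 5d and 7472 to 8185 CPM at 28d. White adipocyte genes (7 found) summed to 389 to 1966, 195 to 1438 and 381 to 987 CPM in the same order. Of adrenal cortex genes, 5 were found, and their sum passed 10 CPM in 2 sham kidneys (up to 966 CPM) and 1 kidney at 5d (84.0 CPM), but in none at 28d. Red blood cell genes summed to 2200 to 4124, 4968 to 19090 and 1795 to 5122 CPM. In whole kidney RNA, fewer cells of a type and less RNA per cell cannot be told apart.

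None of the clock genes tested was called as differentially expressed between the groups. Of the 10 genes, 8 passed the count filter and were tested, and Npas2 and Dbp were too low. In edgeR's quasi-likelihood test, 0 of 8 had an adjusted p under 0.05 at 5d against sham, where 0.0704% of all 12780 genes were called, and 0 of 8 had an unadjusted p under 0.05, against 7.9% of all genes. At 28d against sham, 0 of 8 were called (0.0235% of all genes) and 0 of 8 passed without adjustment (8.68% of all genes). Between 28d and 5d, 0 of 8 were called (0.415% of all genes) and 1 of 8, Arntl, passed without adjustment (9.05% of all genes). DESeq2 and limma's voom also called 0 members in each comparison, though DESeq2 gave no adjusted p for 5 of the 8 at 28d against sham, and without adjustment DESeq2 passed 0, 0 and 1 and voom 0, 1 and 1. The median log2 fold change of the 8 genes was 0.06 at 5d, −0.05 at 28d and −0.22 between the times, against 0.00018, −0.0012 and −0.0046 over all genes tested. The comparisons with sham share the same 8 sham kidneys. With so few genes called over all, a count of 0 of 8 does not set the members apart. Nor does it show that their levels were unchanged.

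**Figure D1:**
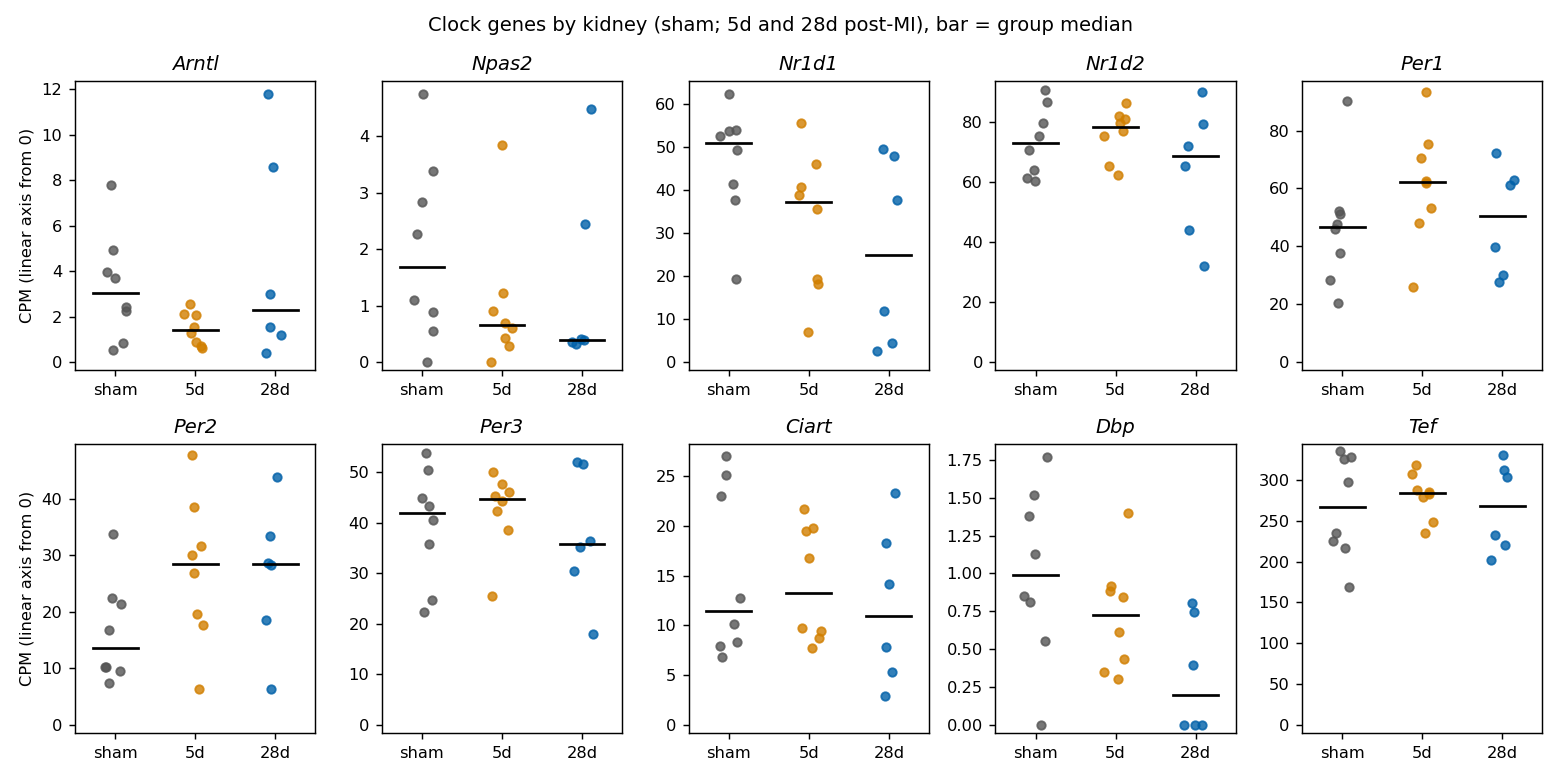
CPM of each gene (vertical axes, linear from 0) in every kidney of the sham, 5d and 28d groups, with a bar at the group median. The groups overlap in all 10 panels, and Nr1d1 at 28d runs from 2.51 to 49.5 CPM.

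Arntl, which encodes the partner that both CLOCK and NPAS2 need (ENSMUSG00000055116, GRCm38 chromosome 7, 113207465 to 113314126), was a low-count gene with 1 to 29 counts per kidney. Sham kidneys had 0.555 to 7.79 CPM (median 3.06), kidneys at 5d 0.602 to 2.54 CPM (median 1.41) and kidneys at 28d 0.402 to 11.8 CPM (median 2.28). All 8 kidneys at 5d lay within the range of the sham kidneys. At 28d, replicates 2 and 3 had 8.59 and 11.8 CPM and exceeded every sham kidney, while the other 4 had at most 2.99 CPM. Arntl had a log2 fold change of −1.11 at 5d (standard error 0.63, edgeR adjusted p = 0.711) and 0.46 at 28d (standard error 0.56, adjusted p = 0.891). Without replicates 2 and 3 at 28d the value at 5d against sham stayed −1.11 (edgeR adjusted p = 0.501). Its unadjusted edgeR p went from 0.0918 to 0.0146. The value at 28d against sham was −1.0 without replicates 2 and 3 at 28d (edgeR adjusted p = 0.796) and −0.08 without replicate 3 alone (adjusted p = 0.992). Between 28d and 5d the log2 fold change was 1.57 (standard error 0.65, edgeR adjusted p = 0.457). This value rested on replicates 2 and 3 at 28d. Without both it was 0.11 (edgeR adjusted p = 0.991), without replicate 2 alone 1.25 (adjusted p = 0.695) and without replicate 3 alone 1.03 (adjusted p = 0.747). On the scale of mean log2 CPM with a prior count of 2, the exact permutation test gave a difference of 0.84 (two-sided p = 0.138).

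Npas2, the second partner of ARNTL (ENSMUSG00000026077, chromosome 1, 39193731 to 39363236), had 0 to 14 counts per kidney. Its level was 0 to 4.74 CPM in sham (median 1.69), 0 to 3.84 CPM at 5d (median 0.651) and 0.314 to 4.49 CPM at 28d (median 0.400). A kidney with a count of 0 could hold up to 3 counts, 0.809 CPM in the sham kidney concerned and 1.27 CPM in the one at 5d. The highest kidneys of the 3 groups were close to each other, and the lower medians after infarction came from more kidneys near the floor. The difference of mean log2 CPM was −0.54 at 5d (exact permutation test, two-sided p = 0.271), −0.31 at 28d (exact p = 0.599) and 0.22 between the times (exact p = 0.645).

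Nr1d1, which encodes the repressor REV-ERBα (ENSMUSG00000020889, chromosome 11, 98767932 to 98775333), had the largest SD of log2 CPM within groups of the 8 members tested, taken over the 3 groups together. Sham kidneys had 19.4 to 62.3 CPM (median 50.9), and 7 of the 8 were at 37.8 CPM or more. At 5d it was 7.03 to 55.5 CPM (median 37.2), and replicates 7, 8 and 9 lay under all sham values. At 28d it was 2.51 to 49.5 CPM (median 24.8), and replicates 2, 3 and 7, at 2.51, 4.47 and 11.9 CPM, also lay under all sham values. The other 3 kidneys at 28d, at 37.7 to 49.5 CPM, lay among the sham values. From the lowest to the highest kidney Nr1d1 differed 3.21-fold in sham, 7.90-fold at 5d and 19.7-fold at 28d. In edgeR its log2 fold change was −0.48 at 5d (standard error 0.42, adjusted p = 0.845), −0.85 at 28d (standard error 0.48, adjusted p = 0.655) and −0.37 between the times (standard error 0.50, adjusted p = 0.897). At 28d the result depended on the scale and on the fit. Without adjustment the edgeR quasi-likelihood test gave 0.0913 at 28d against sham. The difference of mean log2 CPM, on which very low kidneys weigh more, was −1.44 (exact permutation test, two-sided p = 0.0296, not adjusted), and voom gave −1.51 (p = 0.0073, adjusted p = 0.392). Without replicates 2 and 3 the edgeR value was −0.34 (adjusted p = 0.930). Nr1d1 overlaps 1075 bases of Thra on the opposite strand, whose level had an r of 0.57 with Nr1d1, and the strand setting of the counting is not given in the sources used here.

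Nr1d2, which encodes the related repressor REV-ERBβ (ENSMUSG00000021775, chromosome 14, 18204054 to 18239127), was steadier. It had 60.3 to 90.8 CPM in sham (median 73.0), 62.5 to 86.4 CPM at 5d (median 78.5) and 32.1 to 90.1 CPM at 28d (median 68.8). Replicates 2 and 3 at 28d, at 44.0 and 32.1 CPM, were the lowest of all 22 kidneys, and the other kidneys at 28d lay within the sham range. Nr1d2 had a log2 fold change of 0.05 at 5d (95% CI −0.27 to 0.36, edgeR adjusted p = 0.970), −0.21 at 28d (−0.56 to 0.15, adjusted p = 0.802) and −0.25 between the times (−0.61 to 0.10, adjusted p = 0.725).

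The Per genes encode inhibitors of the ARNTL complex. Per1, which also responds to glucocorticoids and to acute stimuli (ENSMUSG00000020893, chromosome 11, 69095217 to 69109960), had 20.3 to 90.2 CPM in sham (median 46.8), 25.8 to 93.5 CPM at 5d (median 62.2) and 27.6 to 72.4 CPM at 28d (median 50.4). Its lowest kidney was sham replicate 2 and its highest 5d replicate 9, and the groups overlapped over most of their range. Its log2 fold change was 0.41 at 5d (standard error 0.28, edgeR adjusted p = 0.775), 0.08 at 28d (standard error 0.31, adjusted p = 0.9752) and −0.33 between the times (standard error 0.30, adjusted p = 0.819).

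Per2 (ENSMUSG00000055866, chromosome 1, 91415982 to 91459324) had 7.37 to 33.8 CPM in sham (median 13.5), 6.28 to 47.7 CPM at 5d (median 28.5) and 6.36 to 43.9 CPM at 28d (median 28.4). The medians after infarction were higher than in sham at both times, yet 5d replicate 1 and 28d replicate 4 were below every sham kidney, and sham replicate 8, at 33.8 CPM, was above 11 of the 14 kidneys after infarction. Per2 had a log2 fold change of 0.69 at 5d (standard error 0.38, edgeR adjusted p = 0.707), 0.66 at 28d (standard error 0.42, adjusted p = 0.711) and −0.02 between the times (95% CI −0.85 to 0.81, adjusted p = 0.997). Without sham replicate 8 it was 0.94 at 5d (edgeR adjusted p = 0.508) and 0.91 at 28d (adjusted p = 0.481).

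Per3 (ENSMUSG00000028957, chromosome 4, 151003652 to 151044665) had 22.4 to 53.8 CPM in sham (median 41.9), 25.5 to 49.95 CPM at 5d (median 44.7) and 17.9 to 52.1 CPM at 28d (median 35.8). Only 28d replicate 3 lay under all sham values. Per3 had a log2 fold change of 0.09 at 5d (95% CI −0.33 to 0.51), −0.10 at 28d (−0.57 to 0.36) and −0.19 between the times (−0.65 to 0.27), with edgeR adjusted p-values of 0.953, 0.952 and 0.878. Per3 lies inside the annotated gene Camta1 on the same strand.

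Ciart (also called Chrono), a further repressor of the ARNTL complex (ENSMUSG00000038550, chromosome 3, 95878503 to 95882251), had 6.77 to 27.0 CPM in sham (median 11.45), 7.68 to 21.7 CPM at 5d (median 13.3) and 2.87 to 23.3 CPM at 28d (median 10.98). Within sham the kidneys fell far apart, with replicates 3, 4 and 7 between 23.0 and 27.0 CPM and the other 5 at 12.8 CPM or less. Replicates 2 and 3 at 28d, at 2.87 and 5.29 CPM, were the lowest of all kidneys. For Ciart the log2 fold change was −0.11 at 5d (standard error 0.38, edgeR adjusted p = 0.974), −0.36 at 28d (standard error 0.43, adjusted p = 0.887) and −0.26 between the times (standard error 0.44, adjusted p = 0.928). The whole of Ciart, 3749 bases, overlaps the antisense gene C920021L13Rik, whose level had an r of 0.24 with Ciart over the kidneys.

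Dbp, an output factor with a strong rhythm in many tissues (ENSMUSG00000059824, chromosome 7, 45705088 to 45710203), was counted only 0 to 5 times per kidney. Sham kidneys had 0 to 1.77 CPM (median 0.989), kidneys at 5d 0.301 to 1.40 CPM (median 0.729) and kidneys at 28d 0 to 0.805 CPM (median 0.199). Of the 6 kidneys at 28d, 3 had a count of 0, against 1 of 8 in sham and 0 of 8 at 5d. A count of 0 allows up to 3 counts, which is 1.07, 1.22 and 0.940 CPM in these kidneys at 28d and lies among the sham values. The difference of mean log2 CPM between 28d and sham was −0.61 (exact permutation test, two-sided p = 0.0889), that at 5d −0.17 (exact p = 0.516) and that between the times −0.44 (exact p = 0.113). With no count filter, edgeR gave −1.52 at 28d (adjusted p = 0.578). Dbp overlaps 737 bases of Sphk2 on the opposite strand, and the part of this overlap in the low count was not tested.

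Tef, the second output factor (ENSMUSG00000022389, chromosome 15, 81802421 to 81826863), had the highest counts of the members, 497 to 1247 per kidney, and the narrowest intervals. It had 169 to 336 CPM in sham (median 266.7), 235 to 318 CPM at 5d (median 284) and 202 to 331 CPM at 28d (median 268). All 14 kidneys after infarction lay within the sham range. Tef had a log2 fold change of 0.07 at 5d (95% CI −0.22 to 0.36, edgeR adjusted p = 0.946), −0.0002 at 28d (−0.31 to 0.31, adjusted p = 0.9997) and −0.07 between the times (−0.38 to 0.24, adjusted p = 0.941).

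**Figure D2:**
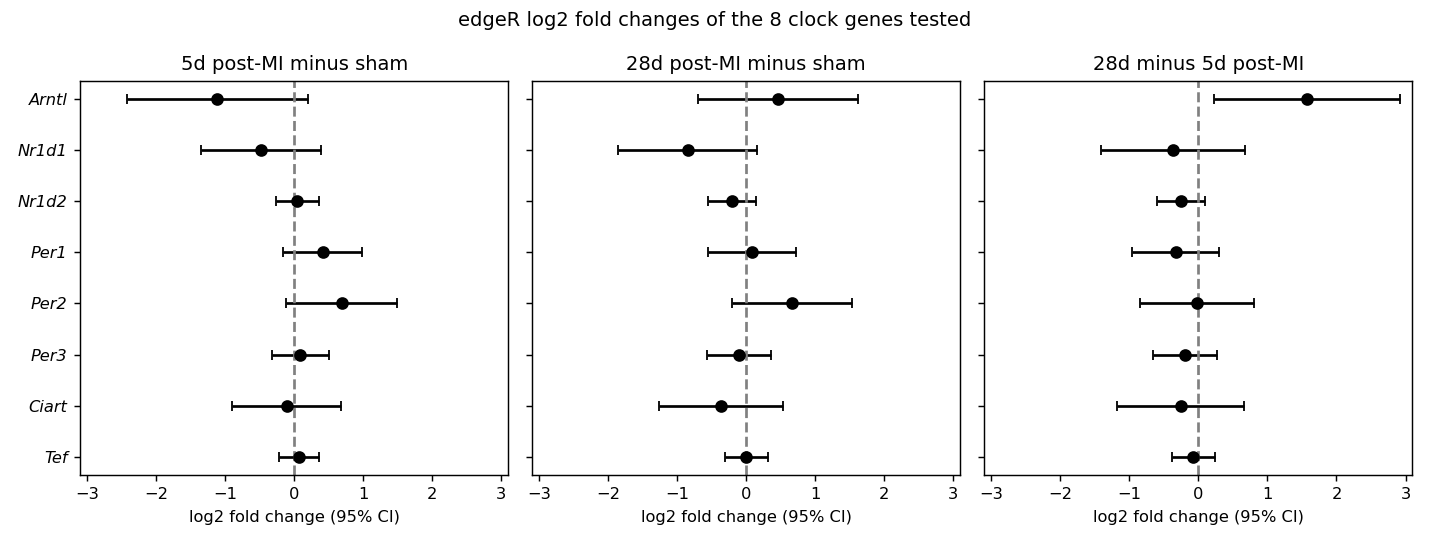
edgeR log2 fold change (horizontal axis) of the 8 tested genes with its 95% confidence interval, in panels for 5d against sham, 28d against sham and 28d against 5d. Only the interval of Arntl between 28d and 5d, 0.22 to 2.92, leaves out 0, and its adjusted p was 0.457.

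Several of the clock genes differed more between kidneys of the same group than almost any other gene tested. The SD of log2 CPM within groups was 1.10 for Nr1d1, a value reached by 0.0704% of the 12780 genes (rank 9), against a median of 0.222 over all genes. It was 0.97 for Arntl (reached by 0.258% of genes), 0.84 for Per2 (0.509%), 0.80 for Ciart (0.634%) and 0.59 for Per1 (2.18%). Per3 (0.44), Nr1d2 (0.33) and Tef (0.28) were less spread and were reached by 9.17%, 23% and 33.4% of genes. Few counts widen an SD, so the dispersion was also set against the one edgeR expects at the gene's level. It was 41.5-fold for Nr1d1, 26.1-fold for Per2, 19.3-fold for Ciart, 16.2-fold for Arntl and 14.2-fold for Per1. For Per3, Nr1d2 and Tef it was 6.92-fold, 4.13-fold and 3.32-fold, ratios reached by 1.94%, 3.34% and 4.12% of genes. These ranks cover only genes that passed the count filter, which Arntl failed in some fits that left out a sham kidney. They describe the genes and carry no test.

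**Figure D3:**
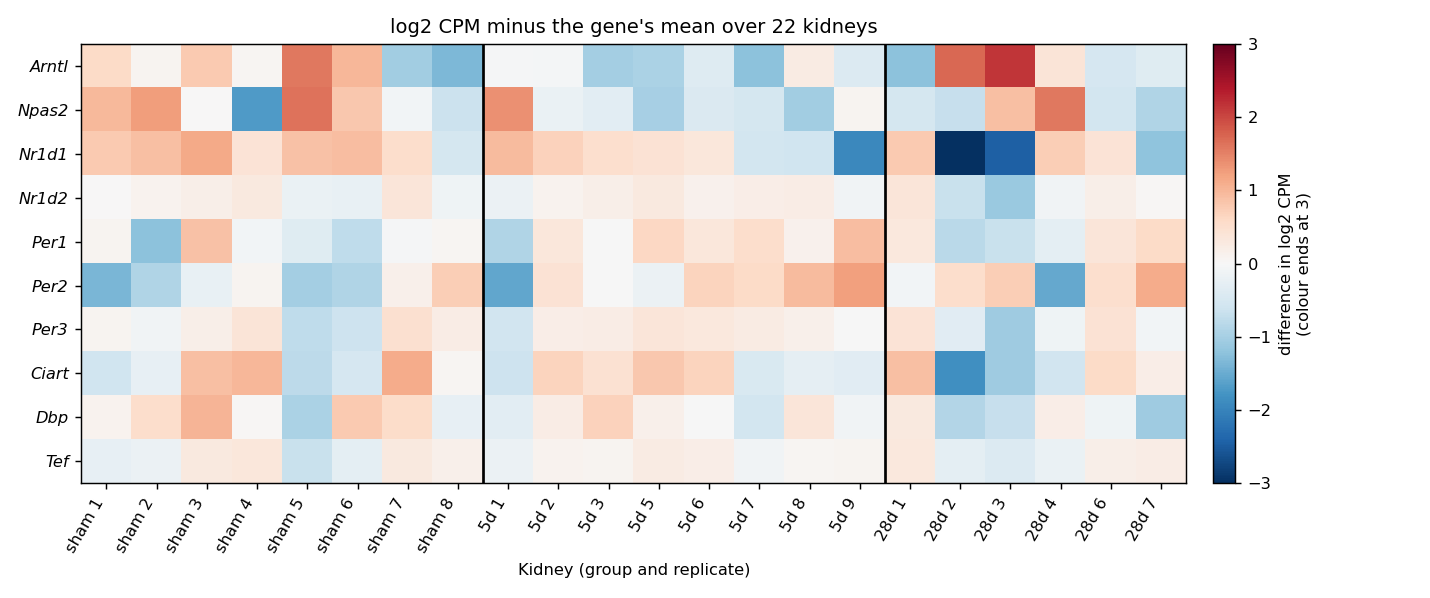
Heat map of log2 CPM (prior count 2) of the 10 genes (rows) in the 22 kidneys (columns, by group and replicate), as the difference from the gene's mean over all kidneys. Red is higher and blue lower, lines part the groups, and 28d replicates 2 and 3 are red for Arntl and blue for Nr1d1, Nr1d2 and Ciart.

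Part of the differences between kidneys was shared by pairs of members. Log2 CPM was centred on the group mean and correlated over the 22 kidneys for all 45 pairs, with 100000 permutations of the kidneys within groups. Adjusted over the pairs, 18 passed 0.05, 10 of them positive and 8 negative, and in all 18 the sign of r was the same within sham, 5d and 28d. By Spearman's rho 20 pairs passed. The share of pairs that would pass among all genes tested was not computed, so the counts describe the members only. The points share libraries and their depth.

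All 10 pairs among Per1, Nr1d2, Per3, Ciart and Tef, genes set together here after their values were seen, were positive, with r from 0.52 to 0.88, rho from 0.55 to 0.94 and adjusted permutation p from 0.00015 to 0.0353. The closest pair was Tef and Ciart (r = 0.88, rho = 0.94, permutation p = 1e-05 for both, the smallest these permutations can give, n = 22). Within the groups its r was 0.93 in sham, 0.83 at 5d and 0.91 at 28d, and without the 2 kidneys farthest from the Tef median it was 0.90. Nr1d2 and Per3 had r = 0.85 (rho = 0.81), with 0.81, 0.85 and 0.95 within the groups. Per1 was tied to them less closely, with r from 0.52 to 0.64. Without the 2 farthest kidneys its r with Nr1d2 fell to 0.35 (adjusted permutation p = 0.258). Its r of 0.59 with both Per3 and Ciart did not pass then either (adjusted permutation p = 0.0724 and 0.0679). Only its pair with Tef still passed (r = 0.65, adjusted permutation p = 0.037).

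By centred Pearson r over all 22 kidneys, the other targets of the ARNTL complex were not tied to these 5 genes at an adjusted p under 0.05. Their r with the 5 was 0.016 to 0.47 for Per2, 0.06 to 0.61 for Nr1d1 and 0.11 to 0.48 for Dbp. The 5 were set together after these values were seen, so the contrast is a description only. For Per2 the result depended on which kidneys were left out. Without 28d replicates 2 and 3 its r passed with Per1 (0.635, adjusted permutation p = 0.0116), Tef (0.625, adjusted p = 0.0101) and Per3 (0.534, adjusted p = 0.0447). It did not pass with Ciart (adjusted p = 0.0973) or Nr1d2 (adjusted p = 0.229). Without the 2 kidneys farthest from the Per1 median, 5d replicate 1 and sham replicate 2, its r with Per1 was 0.245 (adjusted permutation p = 0.527). Without those farthest from the Per2 median, 28d replicate 4 and 5d replicate 1, r was 0.409 with Tef (adjusted p = 0.217) and 0.162 with Per3 (adjusted p = 0.618).

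Arntl ran opposite to 4 of the 5 genes. Its r was −0.78 with Per3 (permutation p = 1e-04, adjusted p = 0.0009, rho = −0.78, adjusted p = 0.00193, n = 22), −0.74 with Nr1d2 (adjusted p = 0.00616), −0.71 with Tef (adjusted p = 0.00709) and −0.66 with Ciart (adjusted p = 0.0152), and with Per1 it was −0.44, which did not pass (adjusted p = 0.0914). With Per3 it was −0.75 in sham, −0.47 at 5d and −0.91 at 28d. The 2 kidneys farthest from the Arntl median were 28d replicates 2 and 3. Without them r was −0.69 with Per3 (adjusted permutation p = 0.0189), −0.61 with Tef (adjusted p = 0.0679) and −0.49 with both Nr1d2 and Ciart (adjusted p = 0.0992). The relations with Tef, Nr1d2 and Ciart thus rest in part on these kidneys. Within 5d, r was −0.088 with Tef, −0.417 with Nr1d2 and −0.195 with Ciart, against −0.958, −0.98 and −0.933 within 28d. Npas2 had negative r with Tef (−0.74), Per2 (−0.71) and Per3 (−0.67), with adjusted permutation p of 0.00208, 0.0037 and 0.00659, at counts of at most 14. Between Arntl and Npas2 r was 0.45 (adjusted permutation p = 0.102).

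Between the repressor genes Nr1d1 and Nr1d2 r was 0.61 (rho = 0.38, adjusted permutation p = 0.07, n = 22). Without subtracting group means it was 0.64 (adjusted permutation p = 0.0119), and without 28d replicates 2 and 3 it was 0.14. By centred Pearson r, the member whose pair with Nr1d1 passed was Per2 (r = −0.63, permutation p = 0.00346, adjusted p = 0.0111, rho = −0.67, adjusted p = 0.00225). Within the groups this r was −0.75 in sham, −0.74 at 5d and −0.59 at 28d. Without the 2 farthest kidneys r was −0.73. In the kidneys with less than 20 CPM of Nr1d1, Per2 was at 28.7 CPM or more. Between Nr1d1 and Arntl the pooled r of −0.32 (adjusted permutation p = 0.355) covered values of 0.78 in sham, 0.03 at 5d and −0.82 at 28d, and the difference between these was not tested. Dbp, with its few counts, had no pair with an adjusted p under 0.05 by centred Pearson r. By Spearman's rho its pair with Nr1d1 passed (rho = 0.59, adjusted permutation p = 0.0229). Without subtracting group means, its Pearson r passed with Nr1d1, Nr1d2 and Ciart (adjusted permutation p = 0.00725, 0.0263 and 0.0263).

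**Figure D4:**
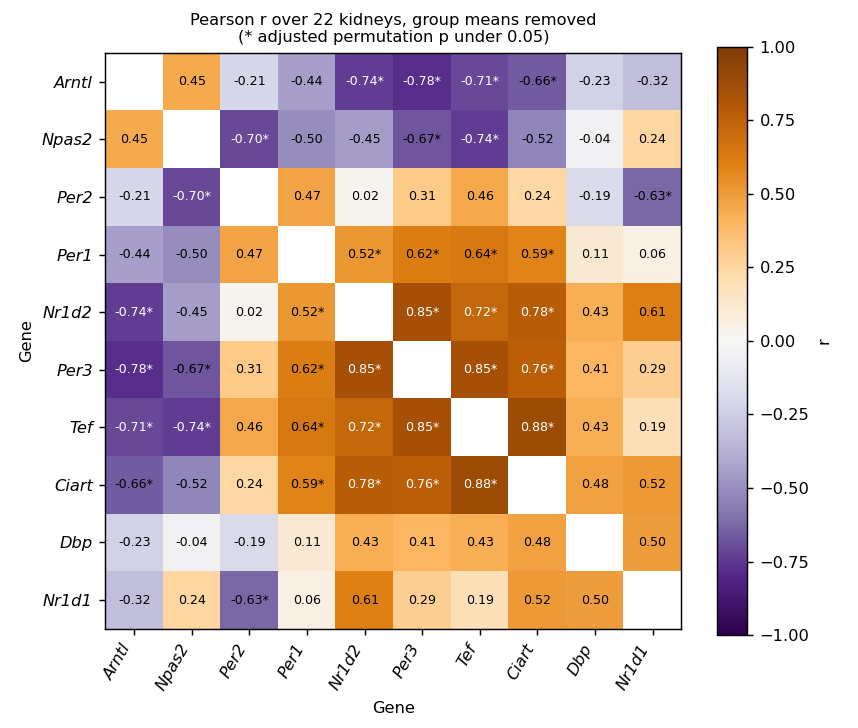
Pearson r between the 10 genes (both axes) over 22 kidneys after the group means were subtracted. The value stands in each cell, and a star marks an adjusted permutation p under 0.05. The block of Per1, Nr1d2, Per3, Tef and Ciart is positive, from 0.52 to 0.88, and Arntl is negative against all of it, without a star for Per1.

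A pair of kidneys at 28d stood apart in many members. Replicate 2 was among the 3 highest of 22 kidneys in Arntl and among the 3 lowest in 5 members (Nr1d1, Nr1d2, Per1, Ciart and Dbp). Replicate 3 was among the 3 highest in Arntl and among the 3 lowest in 6 (Nr1d1, Nr1d2, Per3, Ciart, Dbp and Tef). Sham replicate 5 also combined high Arntl, 7.79 CPM, with low Per3, Tef and Ciart, but its Nr1d1 was 52.5 CPM. The opposite pattern was seen in 28d replicate 1 and sham replicate 7, which were among the 3 highest in Nr1d2, Per3, Tef and Ciart and had Arntl at 0.402 and 0.828 CPM. Replicates 2 and 3 at 28d had totals of 2862059 and 2590822 counts, within the range of the other kidneys. Without them 0 members were called in any comparison, and 20 pairs of members passed 0.05, 14 of the 18 among them.

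Other genes of the loop, from lists taken beside the members, were also compared between the groups. Of 10 other core clock genes, 9 were tested and 0 were called in any comparison. At 28d against sham, 2 of 9 passed an unadjusted p of 0.05, both higher, among them Cry1 (log2 fold change 1.09, edgeR adjusted p = 0.555), the partner of the PER proteins. None of the 9 passed at 5d or between the times, and the median log2 fold changes were 0.15, 0.21 and 0.12. Cry1 was 1.70 to 7.49 CPM in sham, 2.79 to 14.1 CPM at 5d and 1.87 to 17.6 CPM at 28d, with the highest values in 28d replicates 2 and 3. Of 7 modifiers of clock proteins, 6 were tested and 0 passed even without adjustment in any edgeR comparison.

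Over the kidneys, Cry1 ran opposite to Nr1d1. With the group means subtracted, r between them was −0.88, and within sham, 5d and 28d it was −0.47, −0.90 and −0.97. Between Cry1 and Per2 r was 0.72. These values describe 22 kidneys and were not tested.

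**Figure D5:**
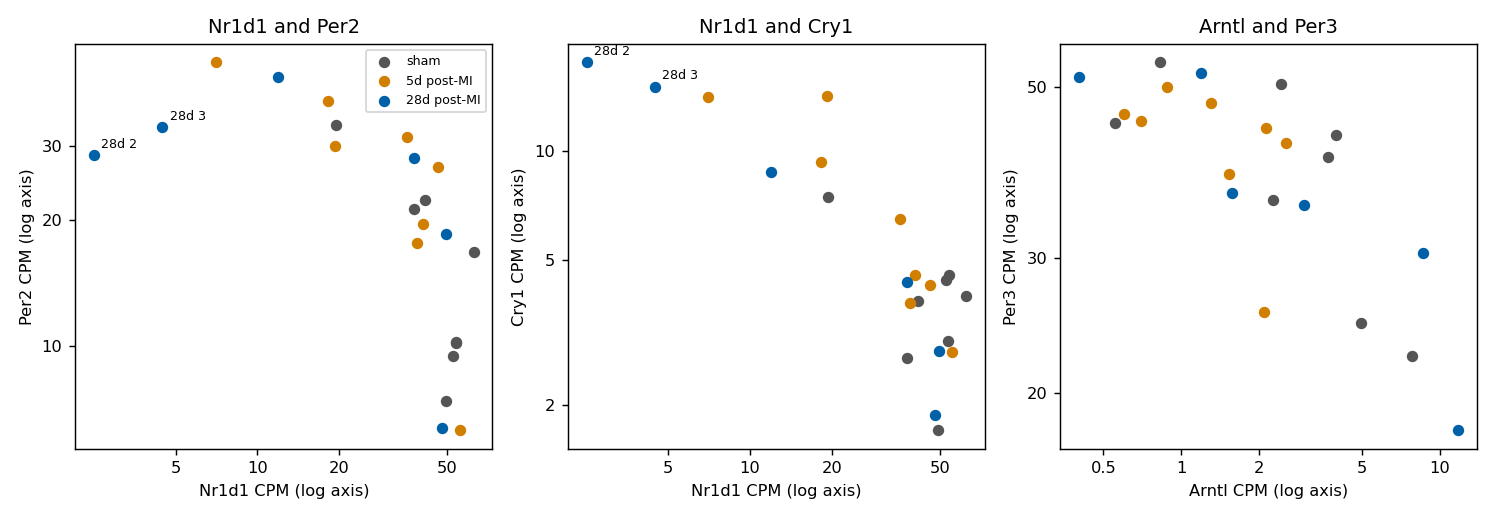
Nr1d1 with Per2, Nr1d1 with Cry1, and Arntl with Per3, as CPM on log axes, with a point per kidney coloured by group. Cry1 and Nr1d1 run from 28d replicate 2 (2.51 CPM of Nr1d1, 17.6 CPM of Cry1) to kidneys near 50 CPM of Nr1d1, and kidneys of all 3 groups lie along the same band.

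Clock-controlled genes known from many organs or from the kidney were tested for 9 of 10, and 0 were called in any comparison. Without adjustment, 2 of 9 passed at 5d against sham, Noct, a rhythmic deadenylase (log2 fold change 0.96, edgeR adjusted p = 0.451), and Nampt, an enzyme of NAD synthesis (0.21, adjusted p = 0.444). At 28d 1 of 9 passed, Nampt (0.19, adjusted p = 0.520), and between the times 0 of 9. The sodium channel subunit Scnn1a and the cotransporter Slc12a3 were among those that did not pass. Of 10 glucocorticoid-responsive genes, a list that also holds Per1 and shares Sgk1 and Tsc22d3 with the list before, 2 passed at 5d without adjustment, Fkbp5 (0.69, adjusted p = 0.587) and Dusp1 (−0.97, adjusted p = 0.276). At 28d Dusp1 passed (0.58, adjusted p = 0.554). Between the times Dusp1 was called (1.55, adjusted p = 0.00886), and Klf9 (−0.21, adjusted p = 0.541) and Mt1 (−0.30, adjusted p = 0.549) passed without adjustment. Dusp1 is also an immediate early gene.

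Kidney replicate 9 at 5d had the highest Per1 (93.5 CPM) and Per2 (47.7 CPM) and the lowest Nr1d1 of its group (7.03 CPM). It also had the highest Fkbp5 (189 CPM), Tsc22d3 (290 CPM), Sgk1 (288 CPM) and Noct (66.9 CPM) of all 22 kidneys, where the medians were 60.2, 97.1, 87.0 and 14.4 CPM. Of the other glucocorticoid-responsive genes, Mt1 and Cdkn1a were also highest in this kidney, and Zbtb16, Mt2, Klf9 and Dusp1 were highest in other kidneys. The summed level of the glucocorticoid list without Per1 had an r of 0.76 with Per1 and 0.41 with Per2 over the kidneys. Taken singly, Fkbp5, Tsc22d3, Sgk1 and Zbtb16 had a higher r with Per2 (0.753, 0.844, 0.642 and 0.705) than with Per1 (0.288, 0.535, 0.337 and 0.431). Klf9, Mt1, Mt2, Dusp1 and Cdkn1a had a higher r with Per1 (0.784, 0.521, 0.451, 0.452 and −0.169) than with Per2 (0.365, −0.145, −0.268, −0.054 and −0.315). Immediate early genes (8 of 8 tested) summed to 574 to 1182 CPM in sham, 70.1 to 574 CPM at 5d and 768 to 1956 CPM at 28d, and 7 of 8 were called between the times. The r of this sum was −0.02 with Per1, −0.54 with Per2 and 0.34 with Nr1d1. The part of either list in the levels of the members was not tested.

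The genes outside the members most like Arntl over the 22 kidneys, by r of group-centred log2 CPM among all genes tested, were Itga6 (0.78), Gm43792 (0.77), Cxcl9 (0.77), Slc16a1 (0.75) and Ndrg1 (0.74). Those most opposite were Mbd4 (−0.79), Brwd3 (−0.73), Spata1 (−0.72), Cd38 (−0.71) and Ispd (−0.70). No gene of the other clock lists was among them. Dbp was too low for such a comparison, and Nr1d1 was taken in its place after its values were seen. Among those most like Nr1d1 were Tmem86a (0.89), Phldb2 (0.87), Klf11 (0.85) and Slc25a36 (0.84). Among the most opposite were the chaperone genes Hspa8 (−0.89) and Hspa5 (−0.89), Cry1 (−0.88) and Ces1d (−0.86). Cry1 is a clock gene from the list above.

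White adipocyte genes did not run closely with the members. The r of their summed level was between −0.34 (Ciart) and 0.23 (Arntl), and that of the brown adipocyte genes (5 found) between −0.48 (Ciart) and 0.39 (Arntl). Their sums were 25.0 to 380 CPM in sham, 3.03 to 288 CPM at 5d and 14.9 to 96.4 CPM at 28d. At 28d against sham, 4 of 6 tested white and 5 of 5 brown adipocyte genes were lower at an unadjusted edgeR p under 0.05, and 0 were called after adjustment. With the white adipocyte score as a covariate, 0 members were called in any comparison. The log2 fold change of Arntl was then −0.77 at 5d, 0.94 at 28d and 1.71 between the times, and that of Ciart −0.37 at 5d and −0.64 at 28d. Without the 3 kidneys with adrenal cortex genes, 0 were called as well, while Per1 at 5d went from 0.41 to 0.16 and Ciart at 5d from −0.11 to −0.39. The summed adrenal cortex level had an r of −0.44 with Per1. The part of these cells in the levels of the members was not tested. Urothelium genes (4 found) summed to at most 38.8 CPM and leukocyte genes (4 found) to at most 17.3 CPM in any kidney.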

How the data were processed

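Kidney RNA of 24 mice was sequenced by MACE with unique molecular identifiers. The authors trimmed reads with Cutadapt, mapped them (the paper names mm10, the submitters' processing notes mm39 and Bowtie2) and counted genes with HTSeq. The deposited table holds raw counts and values the authors call tpm, which are CPM of each kidney's total (within 5e-06) and not divided by gene length. The annotation, strand setting and use of identifiers in the counts are not given in the sources used here. Of 48 columns, 4 could not be assigned because a column name occurs more than once, so 22 kidneys were used. The p-values rest on the spread between these kidneys.

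Counts were fitted in edgeR 4.0.16 (R 4.3.3; limma 3.58.1, DESeq2 1.42.0) with filterByExpr, TMM, 3 groups and the robust quasi-likelihood F test, two-sided, with Benjamini-Hochberg adjustment over 12780 genes. Permutations used scipy 1.17.1 and numpy 2.4.6, and log2 CPM a prior count of 2. The script was tested on simulated data. Symbols and positions are from GENCODE M21 (GRCm38), which holds 51948 of the 56941 identifiers. Members, lists and tests were chosen with earlier results of these data known. All members were described. Of the clock, clock-controlled and glucocorticoid lists, genes with an unadjusted p under 0.05 were named, and for likeness the 5 highest and 5 lowest r. Some genes that this rule names are not reported here. Standard errors were derived as the absolute log2 fold change over the square root of the edgeR F statistic. Confidence intervals were built from them with a t quantile. Both are approximations over kidneys, and the 3-count floors cover counting error only.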

Additional observations from a re-analysis of the deposited data

Results flagged for a closer look

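In each of 30 combinations of gene and group, the gap between the highest or lowest kidney and its neighbour was set against the group's range on the log2 CPM scale (Dixon's criterion), and 3 stood apart. Chance alone sets apart about 1 in 20 such groups. Nr1d1 in sham replicate 8 was low, at 19.4 CPM from 70 counts, with a gap of 0.565 of the range. Per3 in 5d replicate 1 was low, at 25.5 CPM from 73 counts, with a gap of 0.61 of the range. Npas2 in the same kidney, 5d replicate 1, was high, at 3.84 CPM from 11 counts, with a gap of 0.54 of the range. No member's change differed between 5d and 28d at an adjusted p under 0.05 in edgeR.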

How the results depend on the processing

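The count of members called was 0 in all 3 comparisons under every alternative tried, with 0 to 0 over the fits that left out a kidney each. The number of pairs of members with an adjusted p under 0.05 was 18, and 29 when group means were not subtracted, all 18 among them. It was 13 without the 2 farthest kidneys of each pair, 12 shared with the 18. The log2 fold change changed sign in these cases. Without the 2 kidneys at 28d that stood apart, chosen after the data were seen, it was at 28d against sham −1.0 for Arntl, 0.06 for Nr1d2, 0.13 for Per3, 0.14 for Tef and 0.04 for Ciart, and at 28d against 5d 0.15 for Nr1d1, 0.0068 for Nr1d2, 0.03 for Per3, 0.07 for Tef and 0.15 for Ciart. Without kidneys with adrenal cortex genes it was at 5d −0.02 for Nr1d2, −0.05 for Per3 and −0.03 for Tef, and at 28d −0.12 for Per1. With the white adipocyte score it was at 5d −0.03 for Per3 and −0.003 for Tef. Tef at 28d, at −0.0002 in edgeR, was 0.0006 in DESeq2, 0.009 in voom, 0.0001 with DESeq2 size factors and 0.01 by mean log2 CPM. The cause was not tested.

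With each kidney left out in turn, sign changes stayed within these ranges: at 5d −0.0022 to 0.13 for Tef and −0.23 to 0.08 for Ciart; at 28d −0.08 to 0.68 for Arntl, −0.08 to 0.26 for Per1, −0.22 to 0.03 for Per3 and −0.07 to 0.07 for Tef; and between the times −0.25 to 0.18 for Per2 and −0.1 to 0.46 for Npas2. Arntl passed the count filter in 18 of 22 such fits, not without sham replicates 1, 3, 5 or 6, and gave no value without the kidneys with adrenal cortex genes. Replicate numbers did not pair the kidneys (18 pairs, r −0.127 to 0.089). With a replicate block 0 members were called, and only Ciart at 5d (0.06) and Per2 between the times (0.29) changed sign. Over all genes, the calls at 5d, at 28d and between the times numbered 9, 3 and 53, against 35, 30 and 93 in DESeq2, 22, 11 and 63 in voom, 80, 94 and 160 with no count filter, 2, 31 and 26 with only the groups compared, 22, 8 and 68 without robust estimation, 5, 1 and 51 without TMM, 1, 4 and 58 with the adipocyte score, and 2, 24 and 80 with the replicate block. At 0 to 29 counts, Arntl, Npas2 and Dbp allow only large differences to be seen.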
